A study of Tremella fuciformis and Annulohypoxylon stygium and Tremella fuciformis
Annulohypoxylon stygium with 5 samples.

Results

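The genes described here are those of Annulohypoxylon stygium, the dark ascomycete that accompanies the white jelly fungus Tremella fuciformis, read in mycelia where both fungi grew together. Their transcript levels in dual mycelia were set against those in A. stygium mycelia sampled by themselves after contact with T. fuciformis. A unigene, an assembled transcript sequence, was taken as A. stygium when its higher FPKM (fragments per kilobase of sequence, scaled to the size of the library) in the 2 libraries of A. stygium by itself reached 1 and exceeded by a factor of 10 or more its higher FPKM in the 2 libraries of T. fuciformis by itself. Contigs of 1 assembly cluster were summed, which gave 12770 A. stygium genes of the 27023 genes in the table. Of these, 11922 had at least 1 FPKM in dual mycelia or after contact and were compared, and 848 did not. A gene seen in dual mycelia only cannot be among them, since the dual library took no part in the choice. The after-contact library did take part. When unigenes were assigned on A. stygium alone, there were 200 higher and 134 lower genes past 4-fold, against 210 and 308 as described below.

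The study sequenced 5 libraries of wild-type mycelia, 1 for each condition. The dual mycelia of both fungi were taken 1 week after the fungi met, and the A. stygium mycelia after contact were taken 1 week after interaction with T. fuciformis. A. stygium alone was 1 week old, and the T. fuciformis libraries were 1 week after interaction and, alone, 2 weeks old. How the mycelia sampled after contact were separated from the partner, and whether a library pooled several cultures, is not stated in the labels.

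T. fuciformis is grown together with A. stygium because it breaks down wood poorly, whereas A. stygium, a relative of the wood-decaying Xylaria fungi, degrades the substrate. Fungi take up metals, phosphate and sugars through plasma membrane transporters whose transcription often follows the supply of the nutrient. Copper and ferric iron are first reduced at the cell surface by membrane-bound reductases and then pass permeases specific for each metal.

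With 1 library per condition there was no spread between replicates and no test, so every difference given here describes these libraries. A. stygium unigenes held 59.0% of the FPKM in dual mycelia, 99.0% after contact and 98.9% alone, and T. fuciformis unigenes held 36.4% of the dual library. Each column was therefore rescaled so that the A. stygium unigenes summed to 1000000, which multiplied the dual column by 2.83 and the after-contact column by 1.85. Without it each dual value would be lower, relative to after contact, by a factor of 1.53. All levels below are these rescaled FPKM, which are per length and can be compared between genes, and all ratios are log2((dual + 1)/(after contact + 1)) of them. Fewer A. stygium cells and less A. stygium RNA per cell cannot be told apart in such bulk libraries. Nor can the presence of T. fuciformis RNA, the place where the mycelium grew and the contact itself be told apart. Unigenes matching ribosomal RNA made up 0.369% of the A. stygium FPKM in dual mycelia, 1.63% after contact and 1.13% alone.

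Most A. stygium genes stood at similar levels in both libraries. The log2 ratio had a median of 0.03 and quartiles of -0.29 and 0.39, and 9901 of 11922 genes (83.0%) lay within 2-fold. At least 4-fold higher in dual mycelia were 210 genes, 1.76% of those compared, and at least 4-fold lower were 308, or 2.58%. At 2-fold, 1013 genes (8.50%) were higher and 1008 (8.45%) lower. Of the genes past 4-fold, 40.5% were higher, but without rescaling this share was 20.6%, and the median of all genes was -0.51. The lower calls were mostly faint genes, since 242 of the 308 were listed at 0 in dual mycelia. Among the 6970 genes that reached 10 FPKM in either library, 95 (1.36%) were higher and 45 (0.646%) lower past 4-fold, and 436 (6.26%) and 195 (2.80%) past 2-fold.

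**Figure D1:**
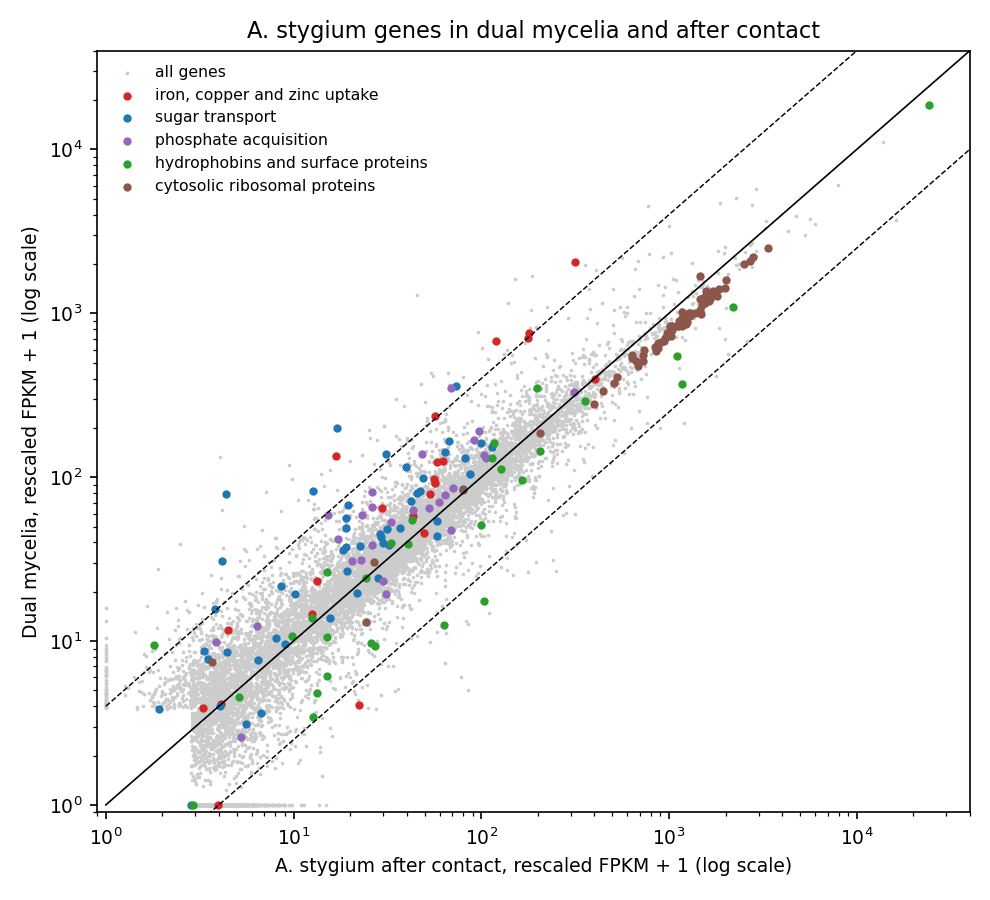
Rescaled FPKM + 1 of A. stygium genes in dual mycelia (vertical, log scale) against A. stygium after contact (horizontal, log scale), 1 point per gene, with members of 5 gene lists coloured, the line of equal levels (solid) and the 4-fold lines (dashed). Of 11922 genes, 9901 lie within 2-fold, 210 lie at or above the upper 4-fold line and 308 at or below the lower one.

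Many genes past 4-fold had no description. A description was available for 66 of the 210 higher genes and 58 of the 308 lower genes, against 6745 of all 11922. A nearest database hit with a genus was found for 126 higher genes, and 54 of these hits (42.9%) lay in Xylariales, the order of A. stygium. For the lower genes it was 42 of 107 (39.3%), against 73.0% of the 9414 compared genes with such a hit. Hits in Tremellomycetes, the class of T. fuciformis, numbered 5 (3.97%) in the higher set, 5 (4.67%) in the lower set and 41 (0.436%) in all. Of the higher genes, 153 of 210 were listed at 0 in both T. fuciformis libraries, against 7354 of all 11922. The highest level any of the 210 reached there was 0.55 FPKM as deposited. Low levels there are partly set by the assignment itself. T. fuciformis fragments of the dual library that align to an A. stygium unigene were not tested for.

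**Figure D2:**
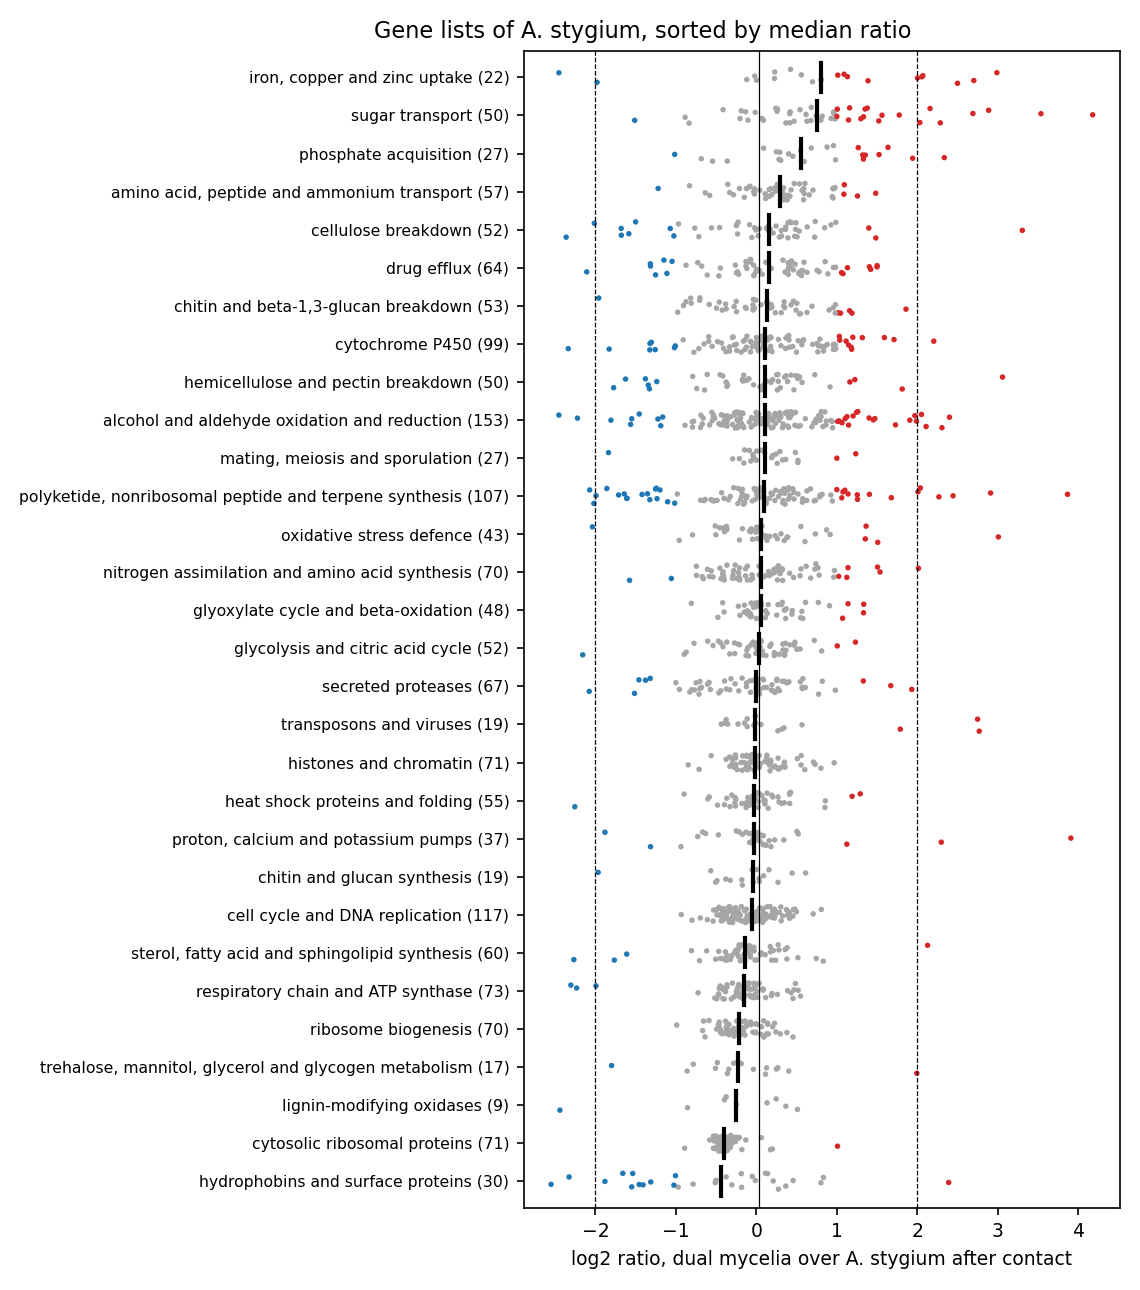
Log2 ratio of dual mycelia over A. stygium after contact for the members of 30 gene lists, 1 point per gene, coloured where past 2-fold. Black bars mark list medians, the solid line the median of all genes and the dashed lines 4-fold. The medians of metal uptake (0.81), sugar transport (0.75) and phosphate acquisition (0.56) stand highest, and those of surface proteins (-0.44) and cytosolic ribosomal proteins (-0.40) lowest.

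Some genes for copper and iron uptake were higher in dual mycelia than after contact, while as many lay within 2-fold. Of 22 compared genes matched by the search words for iron, copper and zinc uptake, 10 were at least 2-fold higher and 6 of these at least 4-fold. The shares of all genes were 8.50% and 1.76%. In the list 2 genes (9.09%) were lower past 2-fold, against 8.45% of all genes, and 10 did not reach 2-fold. The list's median log2 ratio was 0.81, against 0.03 over all genes. That median was 0.21 without rescaling, and 0.16 with only unigenes at 0 in both T. fuciformis libraries. The latter value is for a changed set, since CL1489, Unigene6412 and Unigene6134 then drop out whole. CL1489, for one, had 0.42 and 0.08 FPKM as deposited in the T. fuciformis libraries, against 170.82 in A. stygium after contact. The summed level of the list was 5713 in dual mycelia, 1724 after contact and 1133 alone. Of these sums CL1489 held 2067, 316 and 18.5.

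The copper permeases of the CTR family, which carry reduced copper across membranes, showed this most. CL1489, nearest to ctr4 of Schizosaccharomyces pombe, stood at 2067 in dual mycelia, 316 after contact and 18.5 alone, a log2 ratio of 2.70. Its relative CL1001 stood at 133 in dual mycelia, 15.8 after contact and 8.43 alone, a log2 ratio of 2.99. The ctr5-like Unigene6412 had 710.0 in dual mycelia, 176 after contact and 41.5 alone. In the fission yeast, ctr4 and ctr5 work together in 1 plasma membrane transporter. CL2877, described as a low-affinity copper transporter, had 756 in dual mycelia, 179 after contact and 101 alone, a ratio of 2.07. The most abundant of these was CL3721, whose description is outside the list and whose nearest SwissProt entry is CTR2, a protein that releases copper from the vacuole in Saccharomyces cerevisiae. It had 4541 in dual mycelia, 776 after contact and 303 alone, a ratio of 2.55, which was 1.94 without rescaling. In each of these 5 genes the order was the same, with dual mycelia highest and A. stygium alone lowest. A further copper uptake gene, Unigene21047, was listed at 0 in dual mycelia and alone and had 2.94 after contact. It was faint and counted as A. stygium only through its after-contact level, so its direction is partly set by the assignment.

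Metalloreductases, which reduce ferric and cupric ions ahead of uptake, followed the same order in several genes. CL852 stood at 679 in dual mycelia, 119 after contact and 53.3 alone, a log2 ratio of 2.50. The ferric-chelate reductase Unigene6134 had 235 in dual mycelia, 55.6 after contact and 15.5 alone, a ratio of 2.06. Unigene13292, nearest to the ferric/cupric reductase FRE7 and not in the list, had 1840.3 in dual mycelia, 406 after contact and 63.98 alone. Not every reductase differed past 2-fold, and CL1608 had 44.7 in dual mycelia, 48.6 after contact and 42.2 alone, a ratio of -0.12. Among permeases for iron itself, the FTR1-like CL2846, a plasma membrane iron permease, had 123 in dual mycelia, 57.1 after contact and 58.6 alone, a ratio of 1.09. The siderophore transporters Unigene6821 and Unigene6829, related to mirB of Aspergillus, which takes up iron bound to chelators, had ratios of 1.13 and 0.70. Ratios were thus smaller for these iron genes than for the copper permeases above that stood highest in dual mycelia. Most of these genes were chosen after their values were seen, and the reductase CL1608 did not follow the order. The order therefore does not describe copper and iron uptake as wholes, and it was not tested.

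Of the genes related to zinc, 2 were far lower in dual mycelia. The zinc transporter CL1051, nearest to ZRT2, had 3.05 in dual mycelia, 21.2 after contact and 40.4 alone, a log2 ratio of -2.45. Unigene5567 is named for Asp f 2, an allergen of Aspergillus fumigatus whose family includes secreted zinc-binding proteins. It had 5.06 in dual mycelia, 77.3 after contact and 156 alone, and its ratio of -3.69 was the lowest among described genes of at least 10 FPKM. Other genes nearest to ZRT2, which the search words missed and which were chosen after their values were seen, lay within 2-fold. CL6763 had 241 in dual mycelia, 147 after contact and 217 alone, a ratio of 0.71, Unigene6809 had 50.9 in dual mycelia, 50.9 after contact and 59.1 alone, and Unigene6295 had a ratio of 0.15.

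Copper chaperones and copper-transporting ATPases looked up by name lay within 2-fold, unlike the CTR2-like CL3721. The copper chaperone ATX1 (Unigene4890) had 399 in dual mycelia, 404 after contact and 408 alone. The chaperones CCS1 (CL6723) and COX17 (Unigene10483), which deliver copper to superoxide dismutase and to cytochrome c oxidase, had log2 ratios of 0.49 and 0.78. Of 3 copper-transporting ATPases, which load copper into the secretory pathway, Unigene858 had a ratio of 0.14, CL1496 of 0.37 and Unigene833 of 0.30. Without rescaling all these ratios other than that of COX17 would be negative.

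Among enzymes that carry copper or stand beside those that do, the differences ran in both directions. The alternative oxidase Unigene4020, a mitochondrial enzyme that passes electrons to oxygen without the copper-dependent cytochrome c oxidase, had 433 in dual mycelia, 52.9 after contact and 11.5 alone, a log2 ratio of 3.01. A second alternative oxidase, Unigene14214, had 86.9 in dual mycelia, 70.1 after contact and 75.4 alone. The copper-zinc superoxide dismutase CL6067 had 139 in dual mycelia, 576 after contact and 569.8 alone, a ratio of -2.04. The mitochondrial manganese superoxide dismutase Unigene7339, which removes the same radical with another metal, had 4609.7 in dual mycelia, 2769 after contact and 2073 alone, a ratio of 0.74. The 2 dismutases thus stood on opposite sides of 0. Subunit 4 of cytochrome c oxidase (CL4332) had 528 in dual mycelia, 721 after contact and 702 alone. The laccase Unigene8995, a secreted multicopper oxidase, had 8.83 in dual mycelia, 52.4 after contact and 14.3 alone, a ratio of -2.44. The copper amine oxidase Unigene3222 had 225 in dual mycelia, 62.7 after contact and 82.4 alone and was higher in dual mycelia, with a ratio of 1.83.

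Of the genes for metals and their enzymes, CL1489, CL1001, CL1051, Unigene5567, Unigene4020, Unigene7339 and Unigene8995 were named by rule, and the others were chosen after their values were seen. Over the lists as wholes, 43 genes of oxidative stress defence had a median log2 ratio of 0.06, with 4 at least 2-fold higher and 1 lower. These were 9.30% and 2.33%, against 8.50% and 8.45% of all genes. The 9 lignin-modifying oxidases had a median of -0.25, with 0 at least 2-fold higher and 1 lower.

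**Figure D3:**
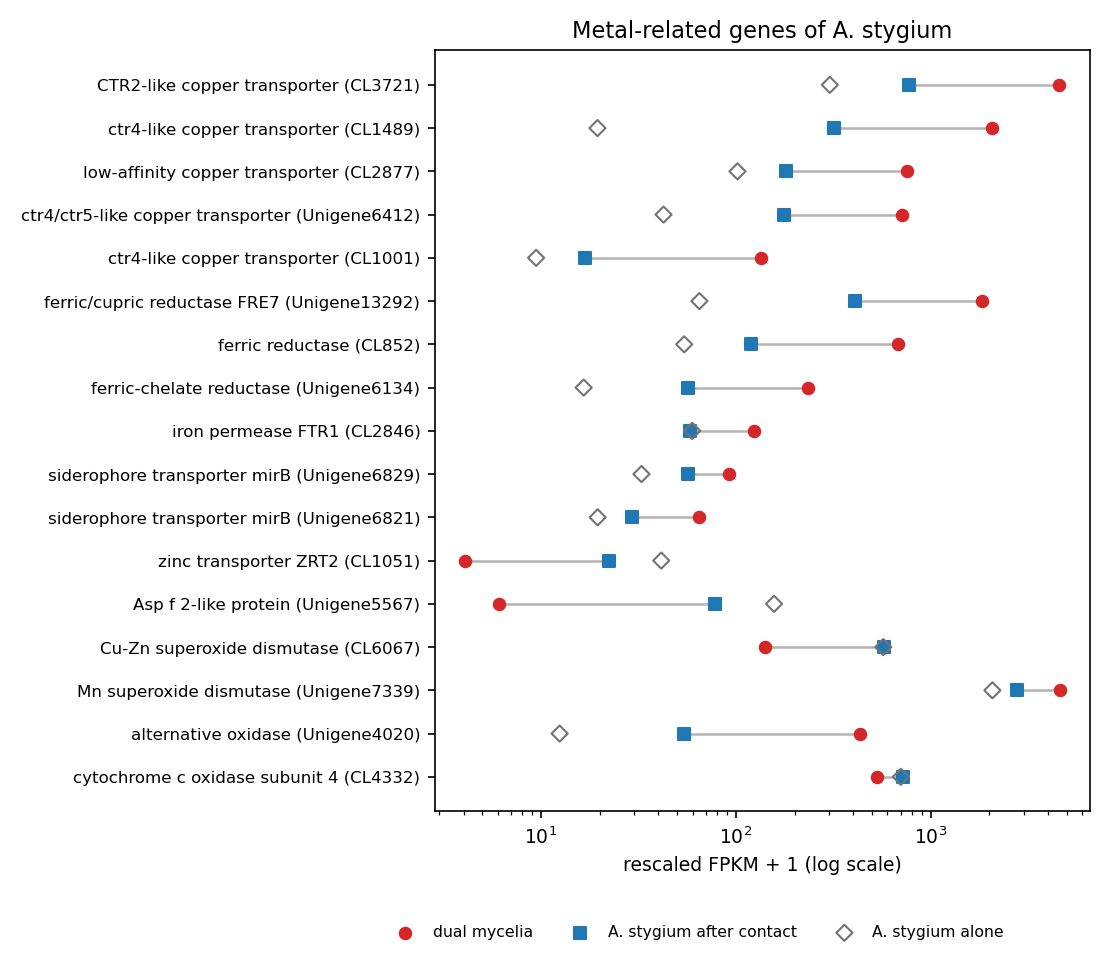
Rescaled FPKM + 1 (horizontal, log scale) of A. stygium genes for metal uptake and metal enzymes in dual mycelia, after contact and alone, 1 row per gene and 1 library per point. For the copper permeases and reductases in the plot dual mycelia lie to the right, as for CL1489 with 2067 in dual mycelia against 316 after contact, and for the zinc transporter CL1051 they lie to the left. The reductase CL1608 and the copper uptake gene Unigene21047, which were not higher in dual mycelia, are not plotted. Unigene21047 was faint and counted as A. stygium only through its after-contact level.

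Sugar transporters had a higher median in dual mycelia too. Of 50 compared members, 18 were at least 2-fold higher in dual mycelia and 7 of these at least 4-fold, against 8.50% and 1.76% of all genes, while 1 was at least 2-fold lower. The list's median log2 ratio was 0.75, or 0.15 without rescaling, and its summed level was 3080.3 in dual mycelia, 1497 after contact and 1597 alone. Several of these genes were faint after contact. The myo-inositol transporter Unigene13337 stood at 78.4 in dual mycelia, 3.37 after contact and 1.45 alone, a log2 ratio of 4.18. A second gene of this description, Unigene8910, had 14.6 in dual mycelia, 2.81 after contact and 5.07 alone. Inositol is a cyclic polyol that some fungi use as a carbon source.

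Glucose transporters covered a range of levels. CL6531, nearest to RGT2, a transporter-like glucose sensor in S. cerevisiae, had 198 in dual mycelia, 16.1 after contact and 12.3 alone, a log2 ratio of 3.54 that was 1.42 when contigs with any T. fuciformis FPKM were left out. The most abundant member, the high-affinity glucose transporter Unigene9772, had 357 in dual mycelia, 72.3 after contact and 109 alone, a ratio of 2.29. Unigene5990, described as low-affinity, had 80.8 in dual mycelia, 11.6 after contact and 35.1 alone. For these last 2 genes the after-contact library was the lowest of the 3. The further sugar transporter Unigene3251 had a ratio of 2.16 and the STL1-like Unigene7473, related to the glycerol symporter of S. cerevisiae, a ratio of 2.89. The rule named Unigene13337, CL6531 and Unigene9772, and the rest were chosen after their values were seen.

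Enzymes that feed sugars and small carbon compounds into metabolism were higher in some cases. The dihydroxyacetone synthase Unigene6667, of a family that in methylotrophic yeasts fixes formaldehyde, had 1626 in dual mycelia, 151 after contact and 115.5 alone, a log2 ratio of 3.43. The alcohol oxidase Unigene12472, of the methanol-oxidizing type in such yeasts, had 41.3 in dual mycelia, 6.998 after contact and 7.501 alone. Another alcohol oxidase, Unigene4593, had 59.3 in dual mycelia, 280.5 after contact and 279 alone, so that genes of 1 description differed in opposite directions. Glucokinase (CL2875), which phosphorylates glucose on entry, had 267 in dual mycelia, 113 after contact and 76.2 alone, a ratio of 1.23. Glycerol kinase (CL645) had 167 in dual mycelia, 41.2 after contact and 33.9 alone. The proline dehydrogenase Unigene3050, the first enzyme of proline breakdown, had 219 in dual mycelia, 50.1 after contact and 33.9 alone. The broader lists were close to the background, with medians of 0.03 for glycolysis and the citric acid cycle (52 genes) and 0.06 for the glyoxylate cycle and beta-oxidation (48 genes). In the list of alcohol and aldehyde oxidation and reduction, 20 of 153 genes (13.1%) were at least 2-fold higher and 9 (5.88%) lower, against 8.50% and 8.45% of all genes. Of the enzymes named here, Unigene3050 and Unigene4593 were chosen after their values were seen.

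Several phosphate genes followed the order seen for the copper permeases. Of 27 members, 8 were at least 2-fold higher in dual mycelia, against 8.50% of all genes, and 1 was at least 2-fold lower. Their median log2 ratio was 0.56 with rescaling and -0.03 without it, so the direction of the list's median depends on the scale. The PHO84-like transporter Unigene9708, which imports phosphate with protons, stood at 347 in dual mycelia, 67.8 after contact and 3.88 alone, a ratio of 2.34. A second PHO84-like gene, Unigene1951, had 80.8 in dual mycelia, 25.3 after contact and 12.1 alone. Another such gene, CL5562, had 191 in dual mycelia, 95.8 after contact and 37.97 alone. All 3 stood lowest in A. stygium alone. When contigs with any T. fuciformis FPKM were left out, the ratio of CL5562 was -1.54 rather than 0.99, so its direction rests on such contigs. Summed over contigs, CL5562 had 0.03 FPKM in T. fuciformis after contact and 0.06 in T. fuciformis alone, as deposited.

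Secreted and vacuolar enzymes that free phosphate were also higher in part. The acid phosphatase Unigene4475 had 138 in dual mycelia, 47.2 after contact and 16.6 alone, a log2 ratio of 1.53. The alkaline phosphatase-like Unigene4630 had 57.8 in dual mycelia, 14.3 after contact and 1.58 alone. The endopolyphosphatase CL2828, which cuts stored polyphosphate, had 240.3 in dual mycelia, 63.6 after contact and 23.2 alone, and VTC1 (CL841), part of the complex that makes polyphosphate, had a ratio of 0.86. With contigs of any T. fuciformis FPKM left out, these 2 genes had ratios of -1.22 and -0.56, against 1.90 and 0.86. The most abundant member of the list, the histidine acid phosphatase Unigene8229, differed little, with 332 in dual mycelia, 311 after contact and 278 alone. The list's lowest ratio, -1.01, was that of the faint acid phosphatase Unigene1154. It had 1.61 in dual mycelia, 4.28 after contact and 3.26 alone. Unigene9708 and Unigene8229 were named by rule and the other phosphate genes were chosen after their values were seen. Transporters of amino acids, peptides and ammonium did not share these counts. Of 57, 4 (7.02%) were at least 2-fold higher and 1 (1.75%) lower, against 8.50% and 8.45% of all genes. The median of these transporters was 0.29, or -0.24 without rescaling.

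**Figure D4:**
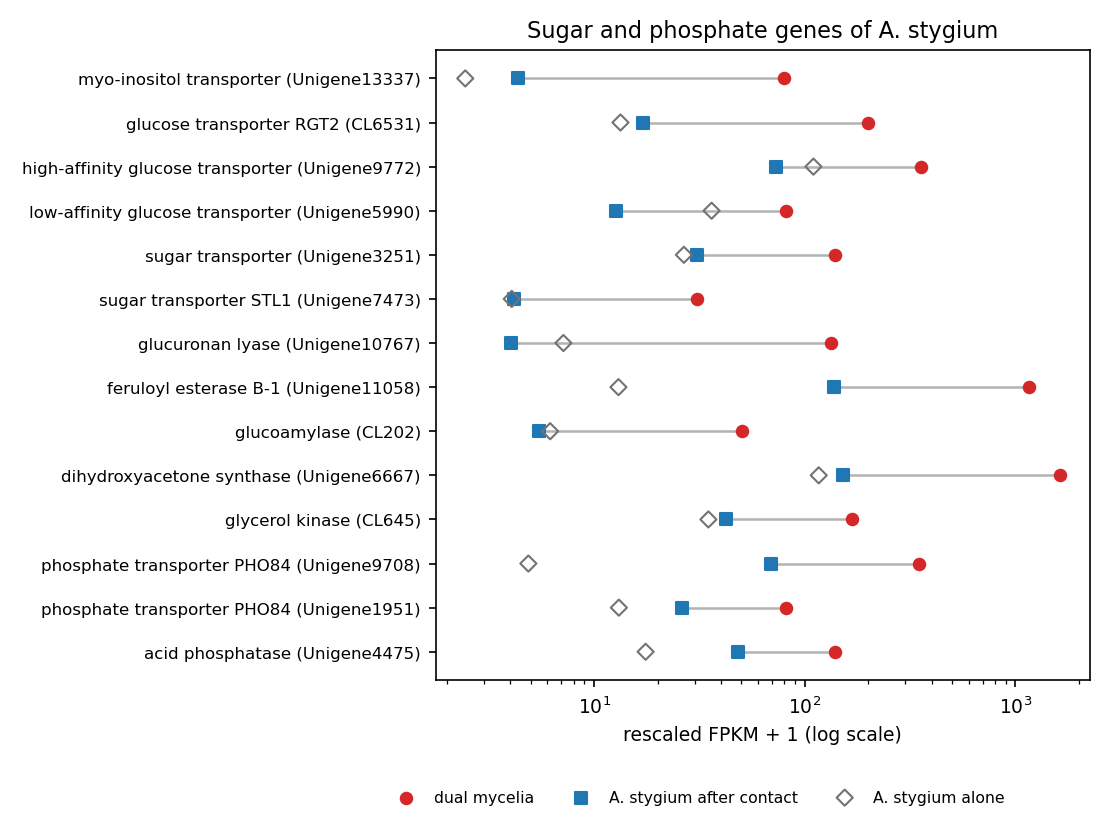
Rescaled FPKM + 1 (horizontal, log scale) of A. stygium genes for sugars, carbon use and phosphate in dual mycelia, after contact and alone, 1 row per gene and 1 library per point. Only genes that were higher in dual mycelia are plotted, so in every row dual mycelia lie to the right of the after-contact point. Genes that were lower or differed little, such as Unigene4593 and Unigene8229, are not plotted. The widest gap is that of glucuronan lyase with 132 in dual mycelia against 3.04 after contact.

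Enzymes that act on plant and microbial polysaccharides differed in both directions. Past 2-fold, 3 of 52 genes for cellulose breakdown (5.77%) were higher and 8 (15.4%) lower, against 8.50% and 8.45% of all genes. For hemicellulose and pectin, 4 of 50 genes were higher and 6 lower. Their median log2 ratios were 0.16 and 0.11. Single genes stood out on both sides. The glucuronan lyase Unigene10767, of a family that cleaves chains of glucuronic acid, had 132 in dual mycelia, 3.04 after contact and 6.15 alone, and its ratio of 5.05 was the highest of any described gene with at least 10 FPKM. The feruloyl esterase Unigene11058, which frees ferulic acid from plant cell walls, had 1154 in dual mycelia, 137 after contact and 12.1 alone, a ratio of 3.06. Glucoamylase (CL202), which releases glucose from starch, had 49.2 in dual mycelia, 4.46 after contact and 5.19 alone. The barwin-like endoglucanase Unigene2229 had 95.8 in dual mycelia, 8.78 after contact and 36.6 alone. In all 4 genes dual mycelia were highest, and all 4 were named by rule. The rule also named a gene on the lower side, the most abundant of the cellulose list. This GPI-anchored endoglucanase, Unigene2623, had 544 in dual mycelia, 1108 after contact and 1429 alone, a ratio of -1.02.

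On the lower side were further enzymes of wood and pectin breakdown. The endoglucanase Unigene7052, which cuts cellulose chains internally, had 156 in dual mycelia, 501 after contact and 505 alone, a log2 ratio of -1.68. The polygalacturonase Unigene2638, which cuts pectin, had 41.9 in dual mycelia, 146 after contact and 16.2 alone. Cellobiose dehydrogenase (Unigene12633), an oxidizing partner of cellulases, had 6.22 in dual mycelia, 28.2 after contact and 8.50 alone. For the last 2 genes the after-contact library was the highest of the 3, and dual mycelia lay nearer to A. stygium alone. These 3 genes were chosen after their values were seen.

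Chitin and beta-1,3-glucan are the main polymers of fungal walls, including those of T. fuciformis. Among 53 A. stygium genes for their breakdown, 5 (9.43%) were higher and 1 (1.89%) lower past 2-fold, against 8.50% and 8.45% of all genes. The list's median log2 ratio was 0.13. The member with at least 10 FPKM that differed most was the glycoside hydrolase family 18 protein CL2129, of the chitinase family, with 76.8 in dual mycelia, 33.1 after contact and 24.4 alone. Against it stood CL7102, outside the list and nearest to an endochitinase, which was chosen after its values were seen and had 57.7 in dual mycelia, 270.2 after contact and 582 alone. Of 67 secreted proteases, 3 (4.48%) were at least 2-fold higher and 5 (7.46%) lower, both below the shares of all genes. The proteases had a median of -0.0034. The most abundant, the metalloproteinase Unigene2612, had 1089 in dual mycelia, 550.5 after contact and 75.7 alone. The alkaline proteinase Unigene8818, chosen after its values were seen, had 554 in dual mycelia, 144 after contact and 6.77 alone, a ratio of 1.93, and the acid proteinase CL4249 had 31.3 in dual mycelia, 135 after contact and 21.5 alone, a ratio of -2.08. The alkaline and the acid protease named here thus differed in opposite directions.

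Some genes for proteins of the cell surface were lower in dual mycelia than after contact. Of 30 compared members, 11 were at least 2-fold lower, against 8.45% of all genes, 18 lay within 2-fold and 1 was at least 2-fold higher. The median log2 ratio was -0.44, or -0.97 without rescaling and -0.81 with only unigenes at 0 in both T. fuciformis libraries. The summed level was 22373 in dual mycelia, 30606 after contact and 31059 alone, most of it from 1 gene. This was the hydrophobin Unigene10417, a small amphipathic protein that coats aerial hyphae, with 18756 in dual mycelia, 24312 after contact and 25009 alone. It was among the most abundant described transcripts in both libraries, and its ratio was -0.37.

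Several wall proteins and adhesins had ratios further from 0 than that of the hydrophobin. PhiA (Unigene2039), a wall protein that in Aspergillus is needed for spore-bearing cells, stood at 213 in dual mycelia, 1199 after contact and 466 alone, a log2 ratio of -2.49. The adhesin EAP1 (Unigene8882), which mediates adhesion in Candida albicans, had 368 in dual mycelia, 1166 after contact and 233 alone. Unigene19, named Muc1p and nearest to the flocculin FLO11, had 411 in dual mycelia, 1774 after contact and 1926 alone. For PhiA and EAP1 the after-contact library was the highest of the 3, whereas Unigene19 was about as high alone. The proline-rich wall protein CL970 had 214 in dual mycelia, 762 after contact and 731 alone, a ratio of -1.83. The CFEM-domain protein CL3512, of a family of cysteine-rich surface proteins, had 16.6 in dual mycelia, 102 after contact and 10.5 alone. The GPI-anchored wall protein Unigene3287 had 11.5 in dual mycelia, 61.9 after contact and 126 alone. Of these last 2, CL3512 stood lowest alone and Unigene3287 highest alone. ECM33 (CL5649), needed for wall organization in yeasts, had 1095 in dual mycelia, 2199 after contact and 2494 alone. CL877, which has no description and so cannot be placed among surface proteins, had 199 in dual mycelia, 897 after contact and 932 alone. A flocculin-like gene, CL496, was the member on the higher side, with 8.43 in dual mycelia, 0.796 after contact and 2.64 alone. Unigene10417, PhiA and CL3512 were named by rule, and the others were chosen after their values were seen.

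Genes for wall synthesis had a median log2 ratio near that of all genes, -0.04 against 0.03. Of 19 genes for chitin and glucan synthesis, 0 were at least 2-fold higher and 1 (5.26%) lower, against 8.50% and 8.45% of all genes. The Woronin body protein CL2500, which plugs septal pores of injured hyphae, had 2995 in dual mycelia, 5274 after contact and 5783 alone.

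**Figure D5:**
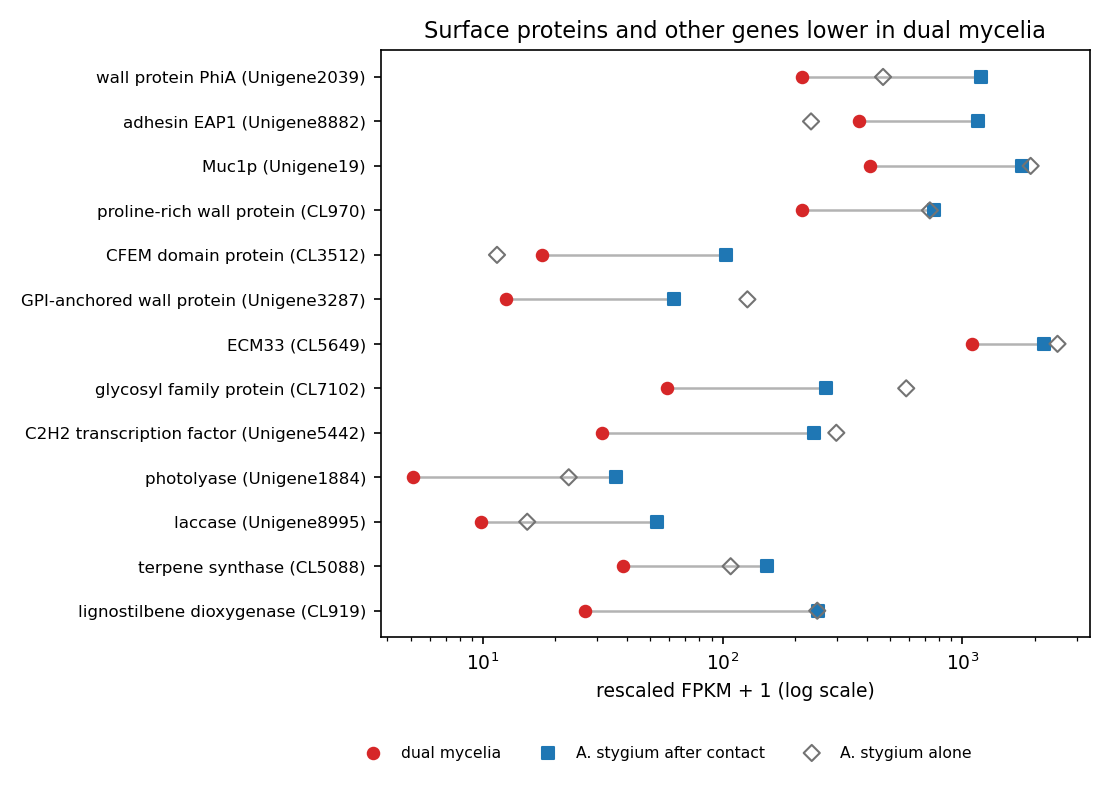
Rescaled FPKM + 1 (horizontal, log scale) of A. stygium surface protein genes and other genes lower in dual mycelia, shown in dual mycelia, after contact and alone, 1 row per gene and 1 library per point. In every row dual mycelia lie to the left of the after-contact point, as for PhiA with 213 in dual mycelia against 1199 after contact.

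Regulators and repair genes were among the other genes that were lower. The C2H2 transcription factor Unigene5442, nearest to NRG1, a repressor of glucose-repressed genes in S. cerevisiae, had 30.4 in dual mycelia, 240.3 after contact and 297 alone, a log2 ratio of -2.94. HOG1 (CL6212), the kinase of the osmotic stress response in yeasts, had 87.1 in dual mycelia, 291 after contact and 271 alone, and its ratio of -1.73 was -4.28 without contigs of any T. fuciformis FPKM. Photolyase (Unigene1884), which repairs ultraviolet damage to DNA with the help of light, had 4.10 in dual mycelia, 35.01 after contact and 21.8 alone. The ultraviolet-damage endonuclease CL6644 had 5.03 in dual mycelia, 19.0 after contact and 10.2 alone. Both repair genes were thus lowest in dual mycelia. The lignostilbene dioxygenase CL919, of the carotenoid-cleaving oxygenase family, had 25.7 in dual mycelia, 249.9 after contact and 247 alone, a ratio of -3.23. The sarcosine oxidase-like Unigene2012 had 12.2 in dual mycelia, 82.1 after contact and 17.3 alone, and the EF-hand protein Unigene5473, with a calcium-binding domain, had 58.6 in dual mycelia, 315 after contact and 232 alone. HOG1 and CL6644 were chosen after their values were seen.

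Genes for secondary metabolites differed in both directions. Of 107 genes for polyketides, nonribosomal peptides and terpenes, 15 (14.0%) were at least 2-fold higher and 17 (15.9%) lower, against 8.50% and 8.45% of all genes. At 4-fold 6 of the 107 were higher and 2 lower, against 1.76% and 2.58% of all genes. The list's median log2 ratio was 0.09. The nonribosomal peptide synthetase CL255, an assembly-line enzyme for small peptides, had 526 in dual mycelia, 108 after contact and 23.5 alone. The polyketide synthase CL3407 had 365 in dual mycelia, 66.1 after contact and 99.7 alone, a ratio of 2.45 that was 0.40 when contigs with any T. fuciformis FPKM were left out. A second polyketide synthase, CL6322, had 16.9 in dual mycelia, 64.04 after contact and 39.7 alone, so that the 2 synthases differed in opposite directions. Of 2 terpene synthases, CL585 had 49.8 in dual mycelia, 11.6 after contact and 3.12 alone, while CL5088, nearest to aristolochene synthase, had 37.5 in dual mycelia, 152 after contact and 107 alone. The ratio of CL5088 was -1.99, and -1.26 without contigs of any T. fuciformis FPKM. Of these genes the rule named CL3407. Cytochrome P450 genes, with 11 of 99 (11.1%) at least 2-fold higher and 8 (8.08%) lower, were near the same shares of all genes. Drug efflux genes counted 7 of 64 (10.9%) on either side, and the most abundant of them, the transporter Unigene8746, had 1067 in dual mycelia, 376 after contact and 108 alone.

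Genes of translation had median ratios below 0, with few of them past 2-fold. Of 71 cytosolic ribosomal protein genes, 67 had a log2 ratio below 0 and the median was -0.40, or -1.01 without rescaling. Over all genes the median was 0.03 and the lower quartile -0.29. With rescaling 0 of the 71 were at least 2-fold lower and 1 was at least 2-fold higher, against 8.45% and 8.50% of all genes. The summed level of the 71 genes was 64834 in dual mycelia, 84209.5 after contact and 70112 alone. The S23 protein of the small subunit (CL318) had 2503 in dual mycelia, 3373 after contact and 2739.5 alone. Translation elongation factor 1 alpha (Unigene8973), which brings aminoacyl-tRNA to the ribosome, had 6060.5 in dual mycelia, 7947 after contact and 7370.3 alone. Among 70 genes of ribosome biogenesis, 55 were below 0 and the median was -0.22. Respiratory chain and ATP synthase genes (73) had a median of -0.16, with 0 at least 2-fold higher and 3 (4.11%) lower. Cell cycle genes (117), histones and chromatin (71) and heat shock proteins (55) had medians of -0.06, -0.02 and -0.02. In the cell cycle and chromatin lists 0 genes passed 2-fold in either direction, against 8.50% higher and 8.45% lower over all genes.

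Several genes that stood far higher in dual mycelia belong to none of these groups. Unigene759, described as a biotrophy-associated secreted protein and named for a protein that plant-infecting fungi secrete, had 118 in dual mycelia, 8.40 after contact and 6.83 alone, a log2 ratio of 3.66. The FAD-binding protein Unigene4619 had 38.3 in dual mycelia, 1.4996 after contact and 2.41 alone. A pol polyprotein, the retrotransposon sequence Unigene10445, had 71.1 in dual mycelia, 9.55 after contact and 0.810 alone, and the reverse transcriptase CL6500 had 204 in dual mycelia, 29.5 after contact and 2.97 alone. The log2 ratio of CL6500 was 2.75, and 0.84 without contigs of any T. fuciformis FPKM. In the list of transposons and viruses 3 of 19 genes (15.8%) were at least 2-fold higher, against 8.50% of all genes, and the median was -0.01. Homoserine kinase (CL1396), an enzyme of threonine synthesis, had 206 in dual mycelia, 50.1 after contact and 37.4 alone.

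Some undescribed genes stood at high levels. Unigene3250 had 1284 in dual mycelia, 44.4 after contact and 133 alone, a log2 ratio of 4.82, and Unigene324 had 1694 in dual mycelia, 185 after contact and 82.4 alone, a ratio of 3.19. In all, 46 of the 95 genes at least 4-fold higher with at least 10 FPKM, and 19 of the 45 lower ones, had no description. Of all 6970 genes at that level, 1715 had none. CL6500, Unigene3250 and Unigene324 were chosen after their values were seen.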

How the data were processed

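The authors deposited 1 table of 42507 assembled unigenes with an FPKM value for each of 5 libraries, and with database hits. The assembler, the aligner and the counter, not given in the sources used here, are unknown. Depth is unknown, so no interval for counting error could be given. There were 0 further per-library columns. The description of a gene was that of its Nr hit or, where that was uninformative, of a SwissProt hit with an e-value of at most 1e-20; these are names of nearest hits, not tested functions. For a cluster it was 1 description for all contigs.

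A. stygium unigenes were rescaled to a sum of 1000000 per library, contigs of a cluster were summed and a pseudocount of 1 was added before the log2 ratio, which understates differences of faint genes. Genes needed at least 1 FPKM in 1 of the 2 libraries. Lists were 30 sets of search words. Named by rule were the 12 largest increases and 12 largest decreases among described genes of at least 10 FPKM, the most abundant and the most different member of each list, and the 5 most abundant described genes of each library. The members, lists and alternatives were chosen with earlier results of these data known. Scripts ran in Python 3.11.15 with pandas 2.3.3 and numpy 2.4.6 and were tested on simulated data. A total of 11 alternatives was run, 2 of them chosen after the data were seen.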

Additional observations from a re-analysis of the deposited data

Results flagged for a closer look

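A set of unigenes outside the comparison had a signal in the dual library. Of the unigenes below 1 FPKM in all 4 single-fungus libraries, 485 had at least 10 FPKM in dual mycelia, and they could not be assigned to either fungus. The same count for a single other library, with under 1 FPKM in the remaining 4, was 2 in A. stygium after contact, 2 in A. stygium alone and 0 in each T. fuciformis library. The 485 unigenes had a median of 17.9 FPKM and a highest value of 653 FPKM as deposited, and they made up 2.31% of the FPKM of the dual library. A genus was given by the nearest Nr hit for 66 of them, of which 40 lay in Tremellomycetes and 3 in Xylariales. Only 20 of the 485 had a description. Which fungus they come from was not tested.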

How the results depend on the processing

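No paired analysis was possible because each condition had 1 library, and for the same reason no replicate could be left out. Counts at least 4-fold higher and lower, 210 and 308 as reported, were 446 and 617 with contigs kept apart, 41 and 158 without rescaling, 55 and 21 with a pseudocount of 10, and 95 and 45 with at least 10 FPKM. They were 117 and 45 with at least 1 FPKM in both libraries, an alternative chosen after the data were seen, which leaves out genes at 0. The lower count was 685 with a pseudocount of 0.1, 134 with unigenes assigned on A. stygium alone and 721 with unigenes at 0 in both T. fuciformis libraries. Scaling to equal medians, no filter and leaving out ribosomal RNA, also chosen after the data were seen, kept the counts within 1.5 times. Without rescaling the median of all genes was -0.51, and list medians were 0.21 for metal uptake, 0.15 for sugar transport, -0.97 for surface proteins and -1.01 for ribosomal proteins. They turned negative for phosphate acquisition (-0.032) and for amino acid, peptide and ammonium transport (-0.24). With unigenes at 0 in both T. fuciformis libraries, medians were 0.16 for metal uptake, 0.26 for phosphate acquisition and -0.81 for surface proteins, and the ratios of CL1972 and CL980 reversed to 0.83 and -0.051. As compared above, CL1972, described as protein TAR1, had 3688 in dual mycelia and 16248.5 after contact, a ratio of -2.14. The undescribed CL980 had 1981 in dual mycelia and 356 after contact, a ratio of 2.47. With only unigenes at 0 in both T. fuciformis libraries the sign also changed for 5 named genes within 4-fold. These were CL3925 (2.61, against -0.72), CL5562 (-1.54), CL2828 (-1.22), CL841 (-0.56) and CL1496 (-0.084). That setting compared 8818 genes and left out some named genes whole, among them CL1489 and Unigene6412. The cause of the sign changes was not tested. Of 62 named genes past 4-fold, 28 stayed past it under every alternative that gave a value, and 51 under every one other than no rescaling and a pseudocount of 10. Depth is unknown, so faint genes, above all those listed at 0, are the least certain.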
